A study of Mus musculus with 8 samples.

Results

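Cytosolic ribosomal proteins build the large and small subunits of the ribosomes that translate messenger RNA in the cytoplasm. On these mouse arrays they were represented by 101 of 22626 probe sets (controls left out), for 49 of the 12393 genes named by a probe set with 1 symbol. A probe set was taken when the array annotation gave it exactly 1 symbol, and that symbol was Rpl or Rps followed by a digit, or Rplp0, Rplp1, Rplp2, Rpsa or Fau; kinases of the Rps6k family, Rps19bp1 and pseudogenes were left out. Of the 101 probe sets, 41 belonged to 22 large subunit genes, 51 to 21 small subunit genes and 9 to 6 paralogs, which are relatives of a ribosomal protein gene encoded elsewhere in the genome (Rpl3l, Rpl7l1, Rpl22l1, Rpl39l, Rps4l and Rps27l). A further 102 probe sets carried a ribosomal protein symbol together with at least 1 other symbol and were not members. For this reason Rplp1, Rpl3, Rpl5, Rps27a and Rpl36al had 0 member probe sets.

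RNA came from lymph nodes of the inbred strain B10.BR, whose cells had been sorted by flow cytometry. There were 3 arrays of naive mice, 3 of mice at day 7 after immunization and 2 of mice at day 28. The labels name no immunogen, sorted population, age or sex. Nothing ties the replicates to different mice, so p-values reflect only how far these arrays lie apart, which may be technical. For 90 of the 101 members the deposited values had a median of 1 over the 8 arrays and were read as ratios to the probe set's own median. The other 11, of which 4 were tested, had a lower median and may be ratios to a common floor; the sources used here do not state the scaling. A log2 ratio therefore says nothing on which gene had more RNA. Since ratios hold no level, markers of lymph node cells could not be checked for presence. In bulk RNA, fewer cells of a type and less RNA per cell cannot be told apart.

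Ribosomal proteins assemble with ribosomal RNA in the nucleolus, and the finished subunits join on messenger RNA to make protein. Their own messenger RNAs begin with a tract of pyrimidines, through which nutrient and growth signals adjust how strongly they are translated. Lymphocytes that leave the resting state build many new ribosomes before they divide. Ribosomal protein messenger RNAs are short and abundant, and their genes have many processed pseudogene copies, so probe sets can pick up related sequences.

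The arrays fell into a low and a high set by the hybridisation spike-ins, bacterial and phage control RNAs put into each hybridisation mix. The median log2 ratio over 18 spike-in probe sets lay between -1.70 and -1.03 on naive replicate 1 and the 3 day 7 arrays, and between 0.64 and 1.41 on naive replicates 2 and 3 and the 2 day 28 arrays. Day 7 was therefore compared with a naive group in which 2 of 3 arrays were of the other set. Day 28 against day 7 set only high arrays against only low ones, so time and spike-in set cannot be told apart there. A term for the spike-in set in the fit rests only on naive replicate 1 against naive replicates 2 and 3.

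Of the 101 members, 94 probe sets of 46 genes reached a ratio of 1 on 2 or more arrays and were tested. The 7 left out were the paralogs Rpl3l, Rpl39l and Rps4l and 1 probe set each of Rpl27a, Rps4x, Rps9 and Rps20, the last 4 genes being tested through others. Each of these 7 had a median ratio below 1. In limma fitted to all 13042 tested probe sets, 0 members passed an adjusted p of 0.05 in any of the 3 comparisons. The background was low as well: 1.17% of all tested probe sets passed for day 7 against naive, 0.322% for day 28 against naive and 1.3% for day 28 against day 7, so a count of 0 among 94 lies near it. At an unadjusted p under 0.05 there were 7, 2 and 12 members in these comparisons, against 15.5%, 6.34% and 16.5% of all tested probe sets. For day 7 against naive 5 of these were higher and 2 lower, against 12.4% and 3.08% of all tested. For day 28 against naive 0 were higher and 2 lower, against 3.13% and 3.21%. For day 28 against day 7, 2 were higher and 10 lower, against 3.47% and 13.1%.

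The members' median differed most on a single array. The members' median log2 ratio was -0.01, 0.03 and 0.01 on the naive arrays, 0.25, -0.60 and -0.01 on the day 7 arrays, and -0.01 and -0.06 on the day 28 arrays. Day 7 replicate 2 thus stood below the other 7 arrays and day 7 replicate 1 above them. Over all tested probe sets the day 7 medians were 0.16, -0.03 and 0.03. On day 7 replicate 2, 38 members (40.4%) had a log2 ratio below -1, against 978 of all tested probe sets (7.50%). That array held the lowest value for 48 of 94 members (51.1%), against 1558 of all tested probe sets (11.9%). It was lowest for 25 of 40 large subunit, 23 of 48 small subunit and 0 of 6 paralog probe sets.

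**Figure D1:**
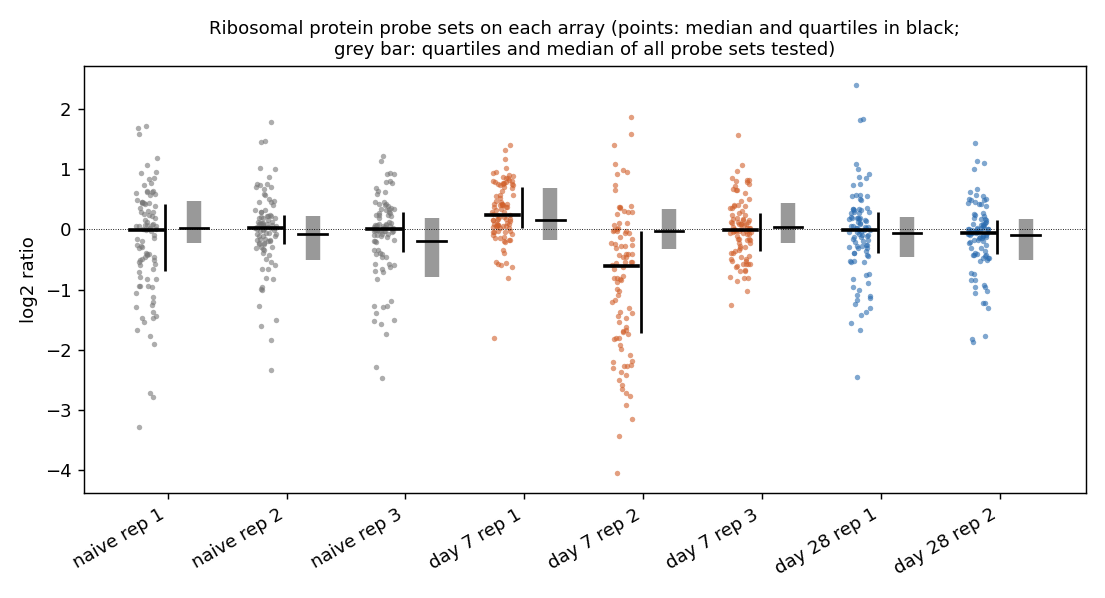
Log2 ratio (y axis) of each of the 94 tested ribosomal protein probe sets on each of the 8 arrays (x axis; grey naive, orange day 7, blue day 28), with their median and quartiles in black and, as a grey bar, the quartiles and median of all tested probe sets. On day 7 replicate 2 the members' median is -0.60, while that of all tested probe sets is -0.03.

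Replicates of day 7 differed more in the members than over all tested probe sets, but not more than in every related list. The median SD between the 3 day 7 arrays was 0.65 on the log2 scale for members and 0.38 for all tested probe sets. It was 0.72 for 20 probe sets of translation elongation and release factors, 0.48 for initiation factors and 0.42 for nucleolus and ribosome assembly. Between the 3 naive arrays it was 0.49 for members and 0.56 for all tested probe sets. In 39 members (41.5%), day 7 replicate 2 lay more than 1 log2 unit below the lower of the other 2 day 7 arrays, against 7.62% of all tested probe sets. The same probe sets could be low on a naive array: 16 members were below -1 on naive replicate 1, and all 16 of these were also below -1 on day 7 replicate 2. Among all tested probe sets, 499 were below -1 on naive replicate 1 and 274 of them also on day 7 replicate 2.

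The 102 probe sets with several symbols, left out above, had a like profile. Of these, 98 passed the filter, and their median log2 ratio on the day 7 arrays was 0.37, -0.38 and 0.01. On day 7 replicate 2, 23 of the 98 were below -1. Member probe sets whose ID ends in _x_at or _s_at, the array maker's marks for probes that may match other transcripts, had a median of -0.54 on that array (41 probe sets). The other 53 had -0.62.

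RNA quality measures of the arrays are given beside this. They are taken from ratios, so they only compare arrays and give no absolute 3′ to 5′ ratio. The log2 difference between the 3′ and 5′ control probe sets of Gapdh was -1.04, -1.18 and 1.17 on the day 7 arrays. It was between 0.17 and 0.57 on the naive arrays, and -1.09 and 0.02 on the day 28 arrays. For beta-actin it was -0.42, 1.27 and 2.76 on the day 7 arrays, and 0.93, 0.05 and -0.01 on the naive arrays. On the day 28 arrays it was -1.08 and -0.05. T cell probe sets (16 of 12 genes) had medians of -0.04, -0.69 and -0.22 on the day 7 arrays. The part of any of these in the low values of day 7 replicate 2 was not tested.

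Among large subunit genes, Rplp0 encodes the base of the acidic stalk that recruits elongation factors. Its log2 ratios were 0.53, -2.77 and -0.67 on the day 7 arrays, against -0.94, 0.75 and -0.01 on the naive arrays. The groups overlapped, and the log2 difference was -0.90 ± 0.82 (SE, 3 arrays per group, limma adjusted p = 0.607). Rplp2, a partner protein in the stalk, had 0.94, -0.59 and -0.11 at day 7, against 0.93, -0.01 and 0.62 in naive cells, and the groups overlapped here too.

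Rpl11, which with Rpl5 can bind the p53 regulator Mdm2, had 0.81, -1.47 and -0.57 at day 7, against -0.71, -0.07 and 0.11 in naive cells (difference -0.19 ± 0.58, SE, limma adjusted p = 0.891). Rpl19, Rpl4, Rpl7a and Rpl8, by 1 probe set each, also had their lowest value on day 7 replicate 2, between -2.37 and -1.81. Of these 4, Rpl19, Rpl4 and Rpl7a had their second lowest value on naive replicate 1. At the other end, Rpl39, a small protein near the exit of the nascent chain tunnel, ranged over only 0.68 log2 units across the 8 arrays.

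Rpl27a had the widest range of all members, 4.71 log2 units, by the probe set that was tested. It had -1.81, -2.51 and -0.79 at day 7 and -3.28, 1.02 and 0.78 in naive cells, so it was low on all 4 arrays of the low spike-in set. On the day 28 arrays it had 0.51 and 1.43. The day 28 minus day 7 difference was 2.67 ± 1.24 (SE, 2 arrays against 3, limma adjusted p = 0.337), with groups that did not overlap. It passed without naive replicate 1 (adjusted p = 0.0370), where 6.21% of all tested probe sets passed, and turned to -1.51 with a term for the spike-in set. Likewise its day 7 minus naive difference was -1.21, but 1.58 within the low spike-in set. Rpl14 ran the other way at day 28, with -2.44 and -0.42 against 0.32, 0.65 and 1.57 at day 7, a difference of -2.28 ± 0.80 (limma adjusted p = 0.215).

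**Figure D2:**
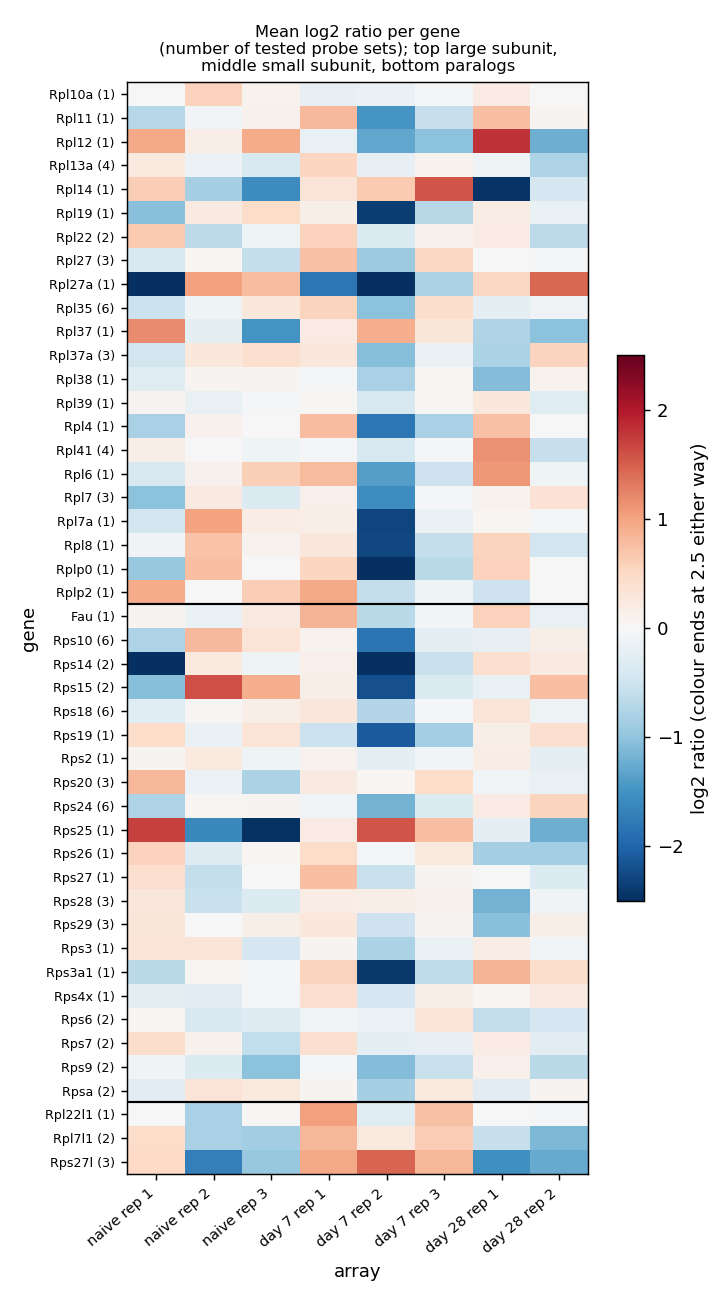
Mean log2 ratio (colour) over the tested probe sets of each of the 46 genes (rows, with the number of probe sets in brackets) on each array (columns), with the large subunit at the top, the small subunit in the middle and the paralogs at the bottom. The column of day 7 replicate 2 is blue for most large and small subunit genes, and the Rps27l row is red on all 3 day 7 arrays.

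Among small subunit genes, Rps14, which sits on the platform near the messenger RNA exit, showed the array pattern most sharply. By one of its probe sets (1436586_x_at) it had 0.09, -4.05 and -0.30 at day 7, against -2.71, 0.03 and -0.03 in naive cells. The other (1437706_x_at) had 0.17, -3.43 and -0.80 at day 7, against -2.78, 0.46 and -0.20. On both, the same 2 arrays were far below the rest, 1 in each group, and the day 7 minus naive differences were -0.52 ± 1.17 and -0.51 ± 1.08 (SE, limma adjusted p = 0.848 and 0.834).

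Both Rps15 probe sets, that of Rps3a1 and 5 of the 6 of Rps10 had the same low array at day 7. The remaining Rps10 probe set (1436384_at) had 0.38 there, its highest day 7 value. Rps15, which lies near the decoding site, had 0.07, -2.58 and -0.39 at day 7, against -0.93, 1.45 and 0.69 in naive cells, by 1 of its 2 probe sets (1416088_a_at; difference -1.37 ± 0.82, SE, limma adjusted p = 0.449). Rps3a1 had 0.56, -2.41 and -0.63 at day 7, against -0.66, 0.02 and -0.02 in naive cells. In contrast, the narrowest range of all members was that of an Rps18 probe set (1450390_x_at), 0.39 log2 units, and an Rps2 probe set ranged over 0.50.

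Rps19, the gene mutated most often in Diamond-Blackfan anaemia of humans, was lower on all day 7 arrays than on all naive arrays. It had -0.55, -2.09 and -0.85 at day 7, against 0.45, -0.17 and 0.35 in naive cells. The difference was -1.37 ± 0.44 (SE, 3 arrays per group) and did not pass (limma adjusted p = 0.199). At day 28 it had 0.15 and 0.39. This gene was outside the array pattern in one respect, since naive replicate 1 held its highest value.

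Rps6, whose phosphorylation by S6 kinases is a common readout of growth signalling, had 0.41, 0.25 and 0.65 at day 7, against 0.64, -0.54 and -0.66 in naive cells, by one probe set (1416142_at). The other (1453466_at) stayed within 0.57 log2 units over the 8 arrays. Rpsa, which also serves as a laminin receptor, had 0.34, -1.63 and 0.12 at day 7 by one probe set (1448245_at) and -0.20, -0.02 and 0.35 by the other (1416196_at). Rps3 and Fau, a fusion of a ubiquitin-like protein with a small subunit protein, had day 7 minus naive differences of -0.39 ± 0.35 and -0.01 ± 0.43 (SE).

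Probe sets of the same gene disagreed in many cases. In 13 of the 21 genes with at least 2 tested probe sets, the sign of the day 7 minus naive difference depended on the probe set. The correlation over the 8 arrays between probe sets of the same gene had a median of 0.56 over these genes, and in 9 genes at least 1 pair was below 0; these are descriptions over 8 arrays shared by all pairs. Between any 2 members the median was 0.20. The widest gap was in Rps9, a small subunit protein near the messenger RNA entry. On day 7 replicate 2 it had -3.15 by one probe set (1433689_s_at) and 0.96 by the other (1434624_x_at).

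Rpl13a, which in human cells can also leave the ribosome and repress translation, shows the same thing with 4 probe sets. On day 7 replicate 2 these had -1.81 (1417608_a_at), 0.39, 0.29 and 0.29. The one that had 0.39 (1433928_a_at) had 0.75, 0.39 and 0.51 at day 7, against 0.16, -0.17 and -0.62 in naive cells. It was higher on all day 7 arrays, with a difference of 0.77 ± 0.30 (SE, limma adjusted p = 0.287). Outside day 7 it reached a ratio of 1 only on naive replicate 1, so without the day 7 arrays it would not have met the filter. Since probe sets of the same gene disagreed, log2 ratios of single genes are given in the text by probe set.

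**Figure D3:**
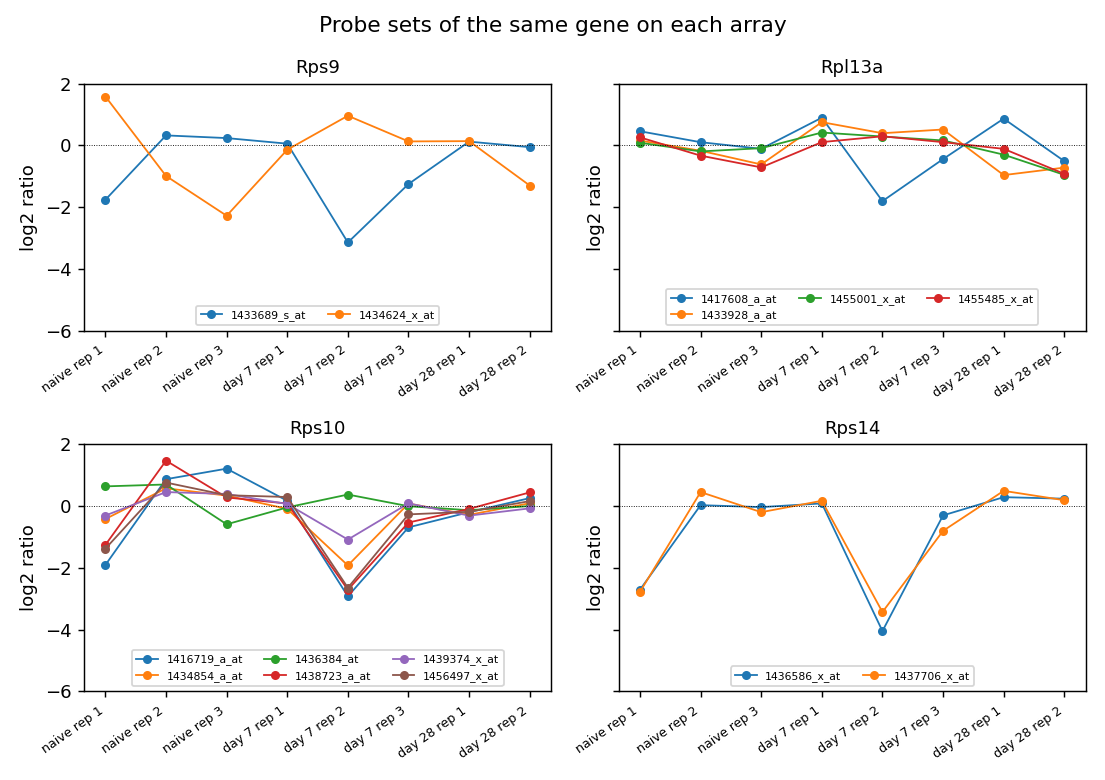
Log2 ratio (y axis) of each tested probe set (colours, with the probe set ID) of Rps9, Rpl13a, Rps10 and Rps14 on each array (x axis); lines only join values of the same probe set. The 2 Rps9 probe sets lie 4.11 log2 units apart on day 7 replicate 2, and both Rps14 probe sets are low on naive replicate 1 and day 7 replicate 2.

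As a group, the members did not shift at day 7 in a way that held without that array. The median day 7 minus naive difference over the 94 members was -0.15 on the log2 scale, and 0.11 over all tested probe sets. It was -0.18 for the large subunit, -0.18 for the small subunit and 1.48 for the 6 paralog probe sets, which belong to 3 genes. Without day 7 replicate 2 the members' median was 0.18, beside 0.17 over all tested probe sets. Within the low spike-in set, day 7 minus naive replicate 1, it was 0.03 for the members and 0.45 for the paralogs. Relative to all tested probe sets, the members' median was -0.26 as deposited, -0.26 after centring each array on its median and -0.23 after quantile normalization. In 6 members (6.38%) all day 7 arrays lay above all naive arrays, and in 5 (5.32%) all lay below. Over all tested probe sets these shares were 13.4% and 8.61%. The 6 were 3 probe sets of Rps27l, 2 of Rpl13a and 1 of Rpl7l1, and the 5 were 1 each of Rpl10a, Rpl12, Rps19, Rps24 and Rps29. Outside day 7, each of the 6 reached a ratio of 1 only on naive replicate 1. None of the 6 would have met the filter without the day 7 arrays, where they were high.

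The 3 highest day 7 minus naive differences of the members belonged to paralog probe sets, of Rps27l and Rpl7l1. Rps27l encodes a near copy of the small subunit protein Rps27 and is induced by p53 in human cells. By its first probe set (1435429_x_at) it had 1.33, 1.86 and 1.07 at day 7, against 0.60, -1.51 and -1.27 in naive cells. The second (1450925_a_at) had 0.78, 1.40 and 0.83 at day 7, against 0.57, -2.34 and -1.19. The third (1423254_x_at) had 0.73, 1.09 and 0.60 at day 7, against 0.30, -1.28 and -0.39. On all 3 the day 7 arrays lay above every naive array, and naive replicate 1 was the naive array nearest to them. Outside day 7, all 3 reached a ratio of 1 only on naive replicate 1. Without the day 7 arrays, where they were high, they would not have met the filter, so any pass depends in part on it.

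The day 7 minus naive differences of Rps27l were 2.15 ± 0.57, 1.99 ± 0.67 and 1.26 ± 0.42 (SE, 3 arrays per group; 4.43-fold, 3.97-fold and 2.39-fold), and none passed (limma adjusted p = 0.146, 0.223 and 0.219). All 3 passed without naive replicate 1 (adjusted p = 0.00741, 0.0115 and 0.0300), where 13.2% of all tested probe sets passed. That fit sets day 7 arrays of the low spike-in set against naive arrays of the high one, so the comparison and the spike-in set cannot be told apart in it. Within the low set, day 7 minus naive replicate 1, the differences were 0.82, 0.43 and 0.50. Over the 16 alternatives tried they ran from 0.82 to 2.81, 0.43 to 2.77 and 0.50 to 1.64, with adjusted p from 0.00741 to 0.742, 0.0115 to 0.982 and 0.0300 to 0.929.

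Rps27l was low on the day 28 arrays, as on naive replicates 2 and 3 but not on naive replicate 1. All 3 probe sets thus reached a ratio of 1 on every array of the low spike-in set and on none of the high one. At day 28 Rps27l had -1.66 and -1.06 on the first probe set, -1.38 and -0.95 on the second, and -1.56 and -1.76 on the third. All lay below every day 7 array, and the day 28 minus day 7 differences were -2.78 ± 0.64, -2.17 ± 0.75 and -2.47 ± 0.47 (SE, 2 arrays against 3). The third came nearest to the threshold of all members in any comparison (limma adjusted p = 0.0556); the others had adjusted p = 0.0920 and 0.210. All 3 passed when only the day 28 and day 7 arrays were fitted (adjusted p = 0.0340, 0.0395 and 0.0317), where 4.53% of all tested probe sets passed. That fit sets the high spike-in set against the low one. With a term for the spike-in set, which rests on the naive arrays alone, the differences were -0.79, 0.16 and -1.33. Only the second turned in sign.

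Rps27 itself did not show this profile. Its probe set had 0.75, -0.56 and 0.07 at day 7, against 0.42, -0.59 and 0.02 in naive cells, and -0.02 and -0.35 at day 28. The day 7 minus naive difference was 0.14 ± 0.42 (SE, limma adjusted p = 0.888). Genes of mitosis (22 probe sets) were also high at day 7: their median was between 1.29 and 1.92 on the day 7 arrays and between -0.60 and -0.32 on the naive arrays. On naive replicate 1 they parted from Rps27l, with a median of -0.32 beside Rps27l values of 0.60, 0.57 and 0.30. Within the low spike-in set their median difference was 1.90. The part of dividing cells in the Rps27l values was not tested.

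Rpl7l1 encodes a relative of Rpl7, and its yeast counterpart acts in assembly of the large subunit. By one probe set (1426386_at) it had 0.79, 0.73 and 0.85 at day 7, against 0.49, -1.84 and -1.39 in naive cells, and -0.74 and -1.87 at day 28. The day 7 arrays lay above every other array, closely above naive replicate 1. Outside day 7 this probe set reached a ratio of 1 only on naive replicate 1, so without the day 7 arrays it would not have met the filter. The day 7 minus naive difference was 1.71 ± 0.61 (SE, limma adjusted p = 0.251). Without naive replicate 1 it was 2.41 (limma adjusted p = 0.0131), where 13.2% of all tested probe sets passed. That fit sets day 7 arrays of the low spike-in set against naive arrays of the high one. Within the low spike-in set the difference was 0.31. The other probe set (1452049_at) had 0.88, -0.26 and 0.41 at day 7, against 0.43, 0.22 and -0.34, and overlapped.

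Rpl22l1, a relative of Rpl22 that can replace it in the ribosome, had 1.02, -0.31 and 0.73 at day 7, against 0.00, -0.81 and 0.04 in naive cells. The groups overlapped through day 7 replicate 2, and the difference was 0.74 ± 0.42 (SE, limma adjusted p = 0.431). Rpl22, which T cell progenitors of mice need to develop, had differences of -0.22 ± 0.50 and 0.53 ± 0.51 by its 2 probe sets. The 5 highest day 7 minus naive differences of the members were those of 2 Rps27l probe sets, Rpl7l1, Rps25 and Rpl14. Rps25 had 0.21, 1.58 and 0.75 at day 7, against 1.72, -1.60 and -2.47 in naive cells, and so was above 0 on every array of the low spike-in set. Outside day 7, Rps25 and Rpl14 reached a ratio of 1 only on naive replicate 1, so neither would have met the filter without the day 7 arrays. Rps25 passed without naive replicate 1 (difference 2.89, limma adjusted p = 0.0179), where 13.2% of all tested probe sets passed. In that fit the groups again differed in spike-in set. Within the low set its difference was -0.87.

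**Figure D4:**
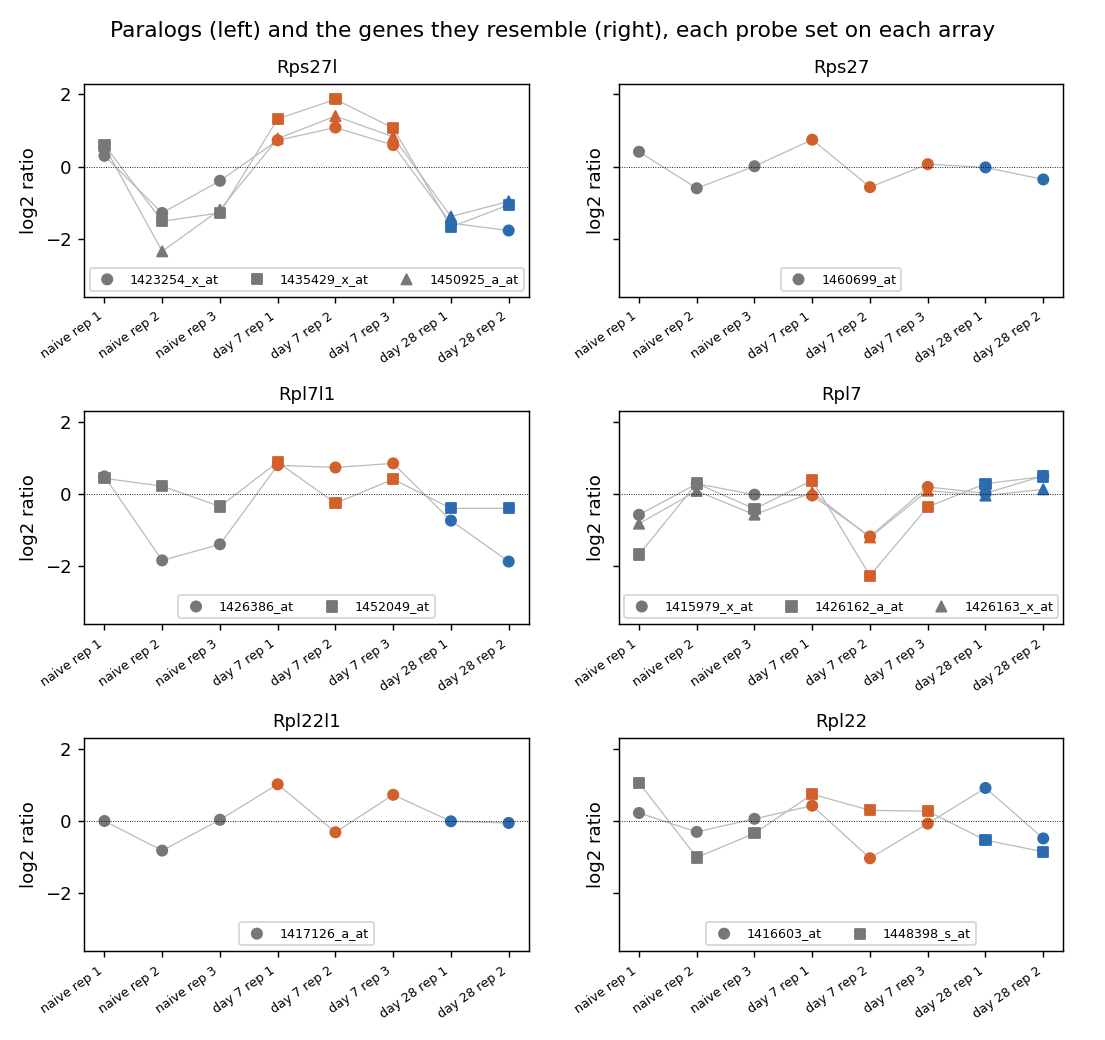
Log2 ratio (y axis) of each tested probe set (marker shapes) on each array (x axis; grey naive, orange day 7, blue day 28) for 3 paralogs on the left and the genes they resemble on the right; lines only join values of the same probe set. The 3 Rps27l probe sets lie between 0.60 and 1.86 on the day 7 arrays and between -1.76 and -0.95 on the day 28 arrays, while Rps27 overlaps in all groups.

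The starts of Rps27l, Rps27 and Rpl7l1 are shown because these genes differed in profile while 2 of them encode near copies of the same protein, and that of Rps10 as a small subunit gene of the common profile. Each window holds 80 bases before and 20 bases after the RefSeq start on build GRCm38.p6, read 5′ to 3′ on the gene's strand. They lie at chr9:66946006-66946105 (plus strand), chr3:90213629-90213728 (minus strand), chr17:46782637-46782736 (minus strand) and chr17:27635225-27635324 (minus strand). Capitals mark CCGGAA or its reverse complement TTCCGG, the core bound by ETS factors such as GABPA.
Rps27l: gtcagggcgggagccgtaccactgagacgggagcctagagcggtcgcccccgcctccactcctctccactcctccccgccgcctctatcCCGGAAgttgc
Rps27: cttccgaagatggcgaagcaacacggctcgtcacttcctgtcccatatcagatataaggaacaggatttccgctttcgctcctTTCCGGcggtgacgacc
Rpl7l1: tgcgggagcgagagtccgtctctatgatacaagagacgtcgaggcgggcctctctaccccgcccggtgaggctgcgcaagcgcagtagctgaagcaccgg
Rps10: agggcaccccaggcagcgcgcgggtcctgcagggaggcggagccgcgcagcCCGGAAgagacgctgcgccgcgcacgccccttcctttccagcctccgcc

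Of the 49 member genes, 43 had a RefSeq promoter of 300 bases (250 before and 50 after the start; the entry listed first was used). CCGGAA on either strand was in 26 of them (60.5%), against 30.1% of 6355 genes with a tested probe set and 15.2% of all promoters. A run of at least 8 bases that are C or T, between 10 bases before and 20 after the start on the coding strand, was in 17 (39.5%), against 11.3% of the genes tested. GGGCGG, the GC box, was in 55.8%, against 64.2%. AAGATGGC, a motif of YY1, was in 9.30%, against 5.21%, and TATAAA in 11.6%, against 7.79%; all 4 motifs were searched on both strands and none was removed for overlap. Rps27l holds CCGGAA but no such pyrimidine run within the bases searched, while Rps27 and Rps10 hold both. Rpl7l1 holds CCGGAA too, though not wholly within the bases shown, and no such run. In the Rps27l sequence shown, a run of more than 8 bases that are C or T crosses the limit 10 bases before the start. Its part inside that limit is shorter than 8 bases and was not counted. The contrast between Rps27l and Rps27 therefore rests on where the limit was set. A match describes the letters in this window and is not a binding site.

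At day 28 the members' median lay close to that of all probe sets. The median day 28 minus naive difference over the 94 members was -0.03, and -0.05 over all tested probe sets. It was 0.02 for the large subunit, -0.03 for the small subunit and -0.44 for the 6 paralog probe sets. In 8 members (8.51%) both day 28 arrays lay above all naive arrays and in 7 (7.45%) both lay below, against 7.76% and 9.88% of all tested probe sets. Of these 8, 4 were probe sets of Rps24, a small subunit gene named after its values were seen. Rps26, next to the messenger RNA exit, had -0.83 and -0.84 at day 28, against 0.58, -0.33 and 0.06 in naive cells. Its difference was -0.94 ± 0.36 (SE, 2 arrays against 3, limma adjusted p = 0.704).

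Markers of several cell types were higher on the day 28 arrays than on the naive arrays. Of 14 B cell probe sets 7 passed upward, against 0.268% of all tested probe sets, and their median log2 ratio was 3.27 and 2.70 on the day 28 arrays, against -0.13, -0.12 and -0.28 on the naive arrays. Of 10 MHC class II probe sets 6 passed upward (median difference 3.86). Of 10 monocyte and macrophage probe sets 0 passed, with a median difference of 1.25. Among 16 T cell probe sets (median difference -0.22) 1 passed, Cd8b1, a chain of the CD8 coreceptor, with a difference of 3.70 ± 0.35 (SE, 2 arrays against 3, limma adjusted p = 0.00936). Cd8a, the other chain, had 3.65 ± 0.55 (limma adjusted p = 0.0580). Cd8b1 and the B cell gene Blnk were below 0 on every naive and day 7 array, and H2-Aa of MHC class II on all but 1. Without the day 28 arrays, where they were high, they would not have met the filter, so their passes depend in part on it. The part of any of these cell types in the members' day 28 values was not tested.

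Day 28 against day 7 rested in part on day 7 replicate 2. The members' median difference was 0.11 on the log2 scale, against -0.16 over all tested probe sets, and without day 7 replicate 2 it was -0.12, against -0.23. In 13 members (13.8%) both day 28 arrays lay above all day 7 arrays and in 18 (19.1%) both lay below, against 15.2% and 29.7% of all tested probe sets. Of the 18, 5 were paralog probe sets, 3 of Rps27l and 2 of Rpl7l1. The Rpl13a probe set 1433928_a_at had -0.96 and -0.72 at day 28, against 0.75, 0.39 and 0.51 at day 7. Its difference was -1.39 ± 0.33 (SE, limma adjusted p = 0.101), and it passed without naive replicate 1 (adjusted p = 0.0438), where 6.21% of all tested probe sets passed. The comparisons of day 28 and of naive arrays with day 7 share the day 7 arrays. All day 28 arrays were of the high spike-in set and all day 7 arrays of the low one, so time and set cannot be told apart.

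**Figure D5:**
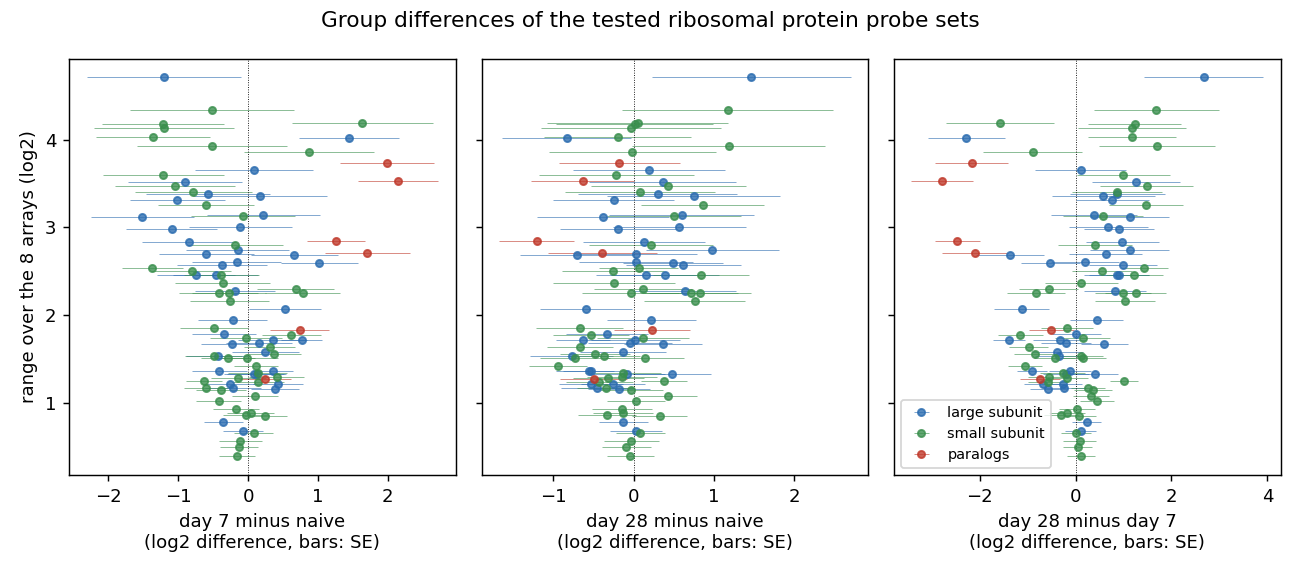
Log2 difference between groups (x axis; points, with SE as bars) of each of the 94 tested probe sets in the 3 comparisons (panels), set against the probe set's range over the 8 arrays in log2 units (y axis), coloured by large subunit, small subunit and paralogs. Members with a wide range have wide bars, and the 3 Rps27l probe sets lie between 1.26 and 2.15 in the left panel and between -2.78 and -2.17 in the right one.

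Other genes of the pathway were described in the same way. Of 70 probe sets for 43 genes of the nucleolus and ribosome assembly, 0 passed in any comparison (median day 7 minus naive difference -0.02). At an unadjusted p under 0.05, 5 were higher and 7 lower for day 7 against naive, 3 and 3 for day 28 against naive, and 4 and 7 for day 28 against day 7. In the same order these are 7.14% and 10.0%, 4.29% and 4.29%, and 5.71% and 10.0% of the list, against 12.4% and 3.08%, 3.13% and 3.21%, and 3.47% and 13.1% of all tested probe sets. Npm1, a chaperone of the nucleolus, had 1.58, -0.04 and 0.04 at day 7, against -0.96, -0.35 and -2.14 in naive cells, by 1 of its 2 probe sets (1432416_a_at). This difference, 1.68 ± 0.62 (SE, limma adjusted p = 0.263), was the highest of the list for day 7 against naive. The other probe set (1415839_a_at) had 0.49 ± 0.45 (SE, limma adjusted p = 0.607). Ncl, another nucleolar gene, had day 7 minus naive differences of 0.48, 0.84, 0.85 and 0.01 by its probe sets. Of 25 probe sets for RNA polymerase I and its factors, 0 passed as well, with a median of -0.06 at day 7. At an unadjusted p under 0.05, 2 were higher for day 7 against naive, 1 was lower for day 28 against naive and 2 were lower for day 28 against day 7 (8.0%, 4.0% and 8.0% of the list, against 12.4%, 3.21% and 13.1% of all tested).

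Translation factors gave a like count. Of 68 probe sets for initiation factors and 20 for elongation and release factors, 0 passed in any comparison, with median day 7 minus naive differences of 0.28 and 0.42. At an unadjusted p under 0.05, 8 initiation factor probe sets were higher and 3 lower for day 7 against naive, 4 and 3 for day 28 against naive, and 1 and 8 for day 28 against day 7. These are 11.8% and 4.41%, 5.88% and 4.41%, and 1.47% and 11.8% of the list, against the same shares of all tested probe sets as given for the nucleolus. For elongation and release factors, 2 were higher, 1 was higher and 1 was lower (10.0%, 5.0% and 5.0% of the list, against 12.4%, 3.13% and 13.1% of all tested). Eef2, which moves the ribosome along, had 0.08, -2.73 and -1.27 at day 7, against -1.31, 1.26 and 0.08 in naive cells. Eef1a1, which delivers aminoacyl-tRNA, had 0.91, -0.62 and -0.23, against 0.19, -0.12 and -0.36. Tpt1, whose messenger RNA also starts with a pyrimidine tract, had 0.75, -0.80 and 0.12, against 0.05, -0.36 and -0.65. All 3 had their lowest value on day 7 replicate 2, as did 8 of the 20 elongation and release factor probe sets (40%), 16 of the 70 of the nucleolus (22.9%) and 12 of the 68 for initiation factors (17.6%), against 11.9% of all tested probe sets.

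Among regulators of ribosomal protein messenger RNA, 1 of 24 probe sets passed, for day 28 against day 7, where 1.3% of all tested probe sets passed and 0.882% passed downward. Eif4ebp2, a repressor of cap-dependent initiation, had -2.19 and -1.50 at day 28, against 0.48, 0.31 and 0.10 at day 7. The difference was -2.15 ± 0.36 (SE, 2 arrays against 3, limma adjusted p = 0.0386). Here too the day 28 and day 7 arrays were of different spike-in sets. Outside day 7, Eif4ebp2 reached a ratio of 1 only on naive replicate 3. Without the day 7 arrays, where it was high, it would not have met the filter. With no filter it passed as well (limma adjusted p = 0.0443), where 0.566% of all tested probe sets passed. The call held under 4 of the 16 alternatives, with adjusted p from 0.0207 to 0.205 and differences from -2.70 to -1.80. It was lost with the spike-in term, the replicate block, median centring and robust and trended variance, with the stricter filter, and without any single array other than naive replicate 1. Myc, which drives ribosome biogenesis, had 1.07 and 0.95 at day 28, against -0.41, -0.94 and -0.29 at day 7 (difference 1.55 ± 0.54, SE, limma adjusted p = 0.210).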

How the data were processed

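Total RNA of sorted lymph node cells was labelled and hybridised to Affymetrix mouse arrays. Per the submitters' processing notes, the authors used GCRMA (version not given in the sources used here). The deposited value is a linear ratio; its scaling was read from the values, since 47.9% of probe sets have a median of 1 over the 8 arrays and none a higher one. Log2 ratios were fitted with limma 3.58.1 in R 4.3.3, with 1 mean per group over the 8 arrays, empirical Bayes moderation, two-sided tests and Benjamini-Hochberg adjustment over the 13042 probe sets that reached a ratio of 1 on 2 or more arrays (64 controls left out). The fit was tested on simulated data. The number of arrays limits the precision. Promoters are RefSeq's. The members and gene lists were chosen with earlier results of these data known.

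Probe sets were named by rule: those past the threshold, the 5 largest rises and falls per comparison, the 5 widest and 5 narrowest ranges, and fixed genes. Rpl19, Rpl4, Rpl7a, Rpl8, Rpl10a, and single probe sets of Rps9, Rps24 and Rps29 were named after their values were seen. Alternatives were other filters and normalizations, 2 groups only, a replicate block, a spike-in term, robust and trended variance, and leaving out each array.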

Additional observations from a re-analysis of the deposited data

How the results depend on the processing

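The count of 0 members past the threshold was kept in all 3 comparisons under every filter and normalization, the replicate block, the spike-in term and the robust and trended variance. It was 3 for day 28 against day 7 with only the 2 groups compared. With arrays left out in turn it ran from 0 to 6 for day 7 against naive, 0 to 0 for day 28 against naive and 0 to 6 for day 28 against day 7, the 6 being without naive replicate 1 each time; without naive replicate 2 it was 1. The members' median at day 7 ran from -0.35 to 0.18 and turned sign without day 7 replicate 2; at day 28 against naive it ran from -0.10 to 0.07 and at day 28 against day 7 from -0.12 to 0.23. The cause was not tested. Over all tested probe sets, the counts for day 7 against naive, 152 in the fit reported, were 94 with no filter, 76 with the stricter filter, 68 with only the 2 groups, 16 with the replicate block, 14 with the spike-in term, 54 with robust and trended variance and 17 to 1727 with an array left out. For day 28 against naive (42) they were 26 with the stricter filter, 0 with only the 2 groups, 9 with the replicate block, 19 with robust and trended variance and 2 to 57 with an array left out. For day 28 against day 7 (170) they were 62 with the stricter filter, 591 with only the 2 groups, 15 with the replicate block, 0 with the spike-in term, 52 with robust and trended variance and 25 to 810 with an array left out. At these counts of 0, by limma, the only tool run, 613 probe sets had an unadjusted p under 0.05 for day 28 against naive with only the 2 groups, and 1402 for day 28 against day 7 with the spike-in term. Of 2013 values of single named members over the alternatives, 16 passed the threshold, 0 passed with the sign turned and 164 turned sign without passing.
Whether the replicate numbers pair the arrays is not known. The correlations between deviations of same-numbered arrays from their group means ran from -0.36 to 0.17. Deviations from a mean of 2 or 3 arrays sum to 0, so these correlations cannot settle it. The replicate block left the members' count at 0 in the 3 comparisons, but it was 0 without the block too and could not fall.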
